A study of Mus musculus with 32 samples.

Results

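The genes described here are 9 components and receptors of the mouse complement system: C1qa, C1qb, C1qc, C3, Cfb, Cfp, Cr1l, C3ar1 and C5ar1. They were chosen by gene symbol, and 8 of the 9 were listed in both deposited expression tables, which share 23620 genes. Cfb, which encodes factor B of the alternative pathway, was not analysed here. Each of the 8 genes was followed in 2 readouts, the mean normalized RNA-seq count in each cell type and the IGF2BP3 eCLIP peaks that carry its Ensembl identifier. Of the 8 genes, 4 had at least 1 eCLIP peak (C3, Cfp, Cr1l and C5ar1) and 4 had none in any library (C1qa, C1qb, C1qc and C3ar1).

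Complement is a cascade of plasma and membrane proteins that tags microbes and dying cells. C1q, built from the chains encoded by C1qa, C1qb and C1qc, starts the classical pathway when it binds antibody or a damaged surface, and C3 is the central protein on which all pathways converge. Properdin, the product of Cfp, stabilizes the enzyme of the alternative pathway that cleaves C3, while the membrane regulator encoded by Cr1l (Crry) limits that enzyme on the body's own cells. The small fragments released from C3 and C5 act on the receptors encoded by C3ar1 and C5ar1, and macrophages are known for making properdin, C1q and these receptors.

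The study used mouse cells carrying MLL-Af4, a leukemia fusion gene delivered by the retrovirus MSCV-MLL-flag-Af4. Lin- cells were bone marrow cells depleted of lineage-positive cells, infected, selected with G418 and grown in culture, and CD11b+ cells were pulled by an anti-CD11b antibody from the splenic tumors of leukemic mice that had been lethally irradiated and had received infected marrow, a selection that does not separate donor from host myeloid cells. RNA-seq covered 12 libraries, with 3 of the genotype WT/MLL-Af4 and 3 of I3KO/MLL-Af4 in each cell type, where I3KO is a germline deletion of Igf2bp3 that arose through a leaky Vav1-Cre. IGF2BP3 eCLIP, in which RNA crosslinked to the RNA-binding protein IGF2BP3 is pulled down with an antibody and sequenced, covered 10 libraries of WT/MLL-Af4 cells, each with a size-matched input library. For CD11b+ cells there were 4 eCLIP libraries, 2 biological (replicates 1 and 2) and 2 technical (replicates 3 and 4), and for Lin- cells 6, of which 3 were biological (replicates 1 to 3) and 3 technical (replicates 4 to 6). No label ties a technical library to the biological one it repeats. Cell type is tied to culture against tumor, so those cannot be told apart. By the study's methods, marrow donors and recipients of the transplants were 8-week-old female mice. The descriptions of the CD11b+ eCLIP libraries and of their inputs begin with the letters bm, as do those of the Lin- ones, whereas the protocol names the spleen for CD11b+ cells, so the tissue behind the CD11b+ eCLIP peaks is in doubt.

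The eCLIP libraries held between 7085 and 10054 input-filtered peaks in CD11b+ cells and between 4040 and 10042 in Lin- cells. The inputs gave 1381 to 1885 peaks in CD11b+ cells and 217 to 1808 in Lin- cells, the lowest being the input of Lin- replicate 5. Mapped reads per eCLIP library are unknown here, and the lack of a peak on a gene leaves IGF2BP3 binding there undetected, not absent. CD11b is encoded by Itgam, whose mean normalized count in the CD11b+ table was 17.0 (percentile 41.8), although 11 merged eCLIP sites lay on it in these cells. Of the macrophage markers, Lyz2 (72146), Csf1r (15008) and Cd68 (3395) had the highest means there and Spic (14.0) the lowest. Of the neutrophil ones, Mpo (84102), Elane (43055) and S100a8 (39348) had the highest and Ly6g (108) the lowest. The same macrophage markers stood, in that order, at 20990, 7910, 2902 and 5.74 in the Lin- table, which was normalized separately. The neutrophil ones stood there at 101212, 14416, 2083 and 15.3. In the Lin- table, Cd34 stood at 9052, Kit at 6974 and Gata2 at 2176, against 1291, 673 and 536 in the CD11b+ table. Igf2bp3 had a mean of 1355 in CD11b+ and 2041 in Lin- cells, but these means pool both genotypes and do not check the deletion.

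The sites below are those of the eCLIP peaks on members. All rest on peaks of 3 to 7 reads, and none had a peak in at least 2 biological libraries. They include 3 places at the edge of an exon. Beside these stand a pair of C- and T-rich stretches in the 3′ UTR of C5ar1 and a purine-rich place inside an intron of Cfp. Each line gives 30 bases of the mm10 (GRCm38) reference genome, 5′ to 3′ on the minus strand, which is the strand of all these genes. In the first 3 lines capitals mark the exon and small letters the intron, and in the other 3 capitals mark the 4-base summit that the peak file gives. The exon bases printed for C3 and Cr1l lie outside their sites, and those for Cfp lie within its Lin- site only. That Lin- site comes from a single peak of 3 reads in a technical library.
Cfp, end of intron 6 and start of exon 7, chrX:20927714-20927743: cttgctccttgtctctacagTAAACGGGGA
Cr1l, end of intron 5 and start of exon 6, chr1:195114832-195114861: tgtgatttttctaattgcagGAGTGATATG
C3, end of exon 29 and start of intron 29, chr17:57211552-57211581: CTCCACCCAGgcaagtggcctcgagctcca
Cfp, intron 2, chrX:20930655-20930684: aagaaacgaggggAAAGgaaactatagtta
C5ar1, 3′ UTR, upstream site, chr7:16247954-16247983: tcttcttcctcctCCTGcctctcctccttc
C5ar1, 3′ UTR, downstream site, chr7:16247630-16247659: cctcctcctccttCTTCtcctcctcctccc

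Transcript levels were compared first. The deposited mean normalized count is 1 value per gene and cell type, averaged by the authors over the 6 RNA-seq libraries of both genotypes, so it has no SD here and neighbouring levels cannot be tested against each other. The tables of the cell types were normalized separately, and levels are therefore given as the percentile among all genes of a table and, between genes, per kilobase (kb) of exon. Fewer cells that express a gene and less RNA per cell cannot be told apart in these bulk samples.

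**Figure D1:**
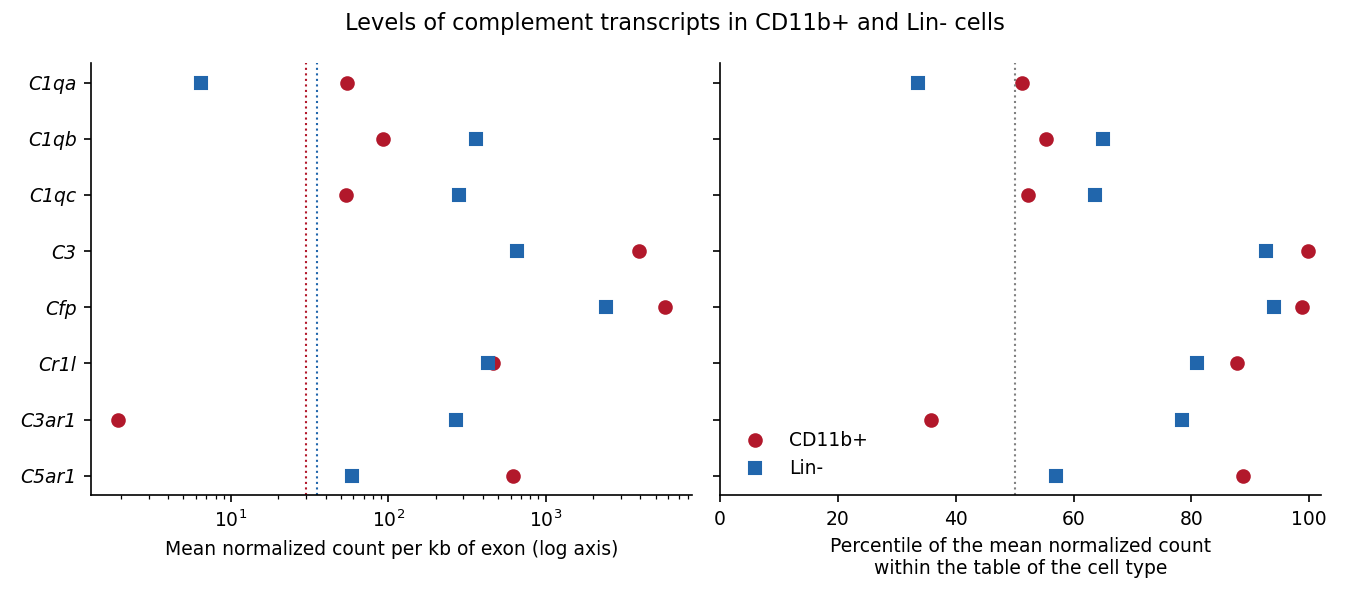
Left, mean normalized count per kb of exon (log axis) of 8 complement genes in CD11b+ cells (circles) and Lin- cells (squares), with dotted lines at the median of all genes with an exon length; right, the percentile of the mean normalized count within each table, with the median dotted. C3 and Cfp lie above percentile 90 in both tables, whereas C3ar1 moves from 35.8 in CD11b+ to 78.4 in Lin- cells.

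C3 and Cfp were the most abundant complement transcripts of the 8 per kb of exon in both cell types. C3 had a mean normalized count of 20172 in CD11b+ cells (percentile 99.7) and of 3399 in Lin- cells (percentile 92.7). Cfp had a mean of 9368 in CD11b+ cells (percentile 98.8) and of 3933 in Lin- cells (percentile 94.0). These percentiles depend on transcript length. Ranked per kb of exon, Cfp stood at percentile 98.3 in CD11b+ and 97.1 in Lin- cells. C3 stood at 97.6 in CD11b+ cells and lower, at 85.9, in Lin- cells. Per kb of exon, C3 stood at 0.686 times the level of Cfp in CD11b+ cells and at 0.275 times in Lin- cells. The exons come to 1.64 kb for Cfp and 5.14 kb for C3.

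Cr1l, the regulator on the cell surface, held a similar rank in both cell types, with a mean of 1491 in CD11b+ cells (percentile 87.8) and of 1392 in Lin- cells (percentile 81.0). Per kb of exon it stood at 460 and 430.

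The receptors stood in opposite order in the 2 cell types. C5ar1 had a mean of 1590 in CD11b+ cells (percentile 88.7) and of 152 in Lin- cells (percentile 57.1, or 31.6 among genes with a mean of at least 10). C3ar1 had a mean of 8.31 in CD11b+ cells (percentile 35.8) and of 1159 in Lin- cells (percentile 78.4). Per kb of exon, C5ar1 was 320 times the level of C3ar1 in CD11b+ cells, and in Lin- cells C3ar1 was 4.56 times the level of C5ar1. The receptor for the C5 fragment was therefore the higher one in tumor cells and the receptor for the C3 fragment the higher one in cultured cells. No spread over libraries could be set beside this order. The ratio of 320 rests on the low count of C3ar1 in CD11b+ cells, where Itgam was also low, at 17.0, despite the selection on CD11b. Whether so low a count reflects the transcript was not tested. Marker genes differed in rank between the tables as well. The percentile was higher in the CD11b+ table for 8 of 10 macrophage, 8 of 9 neutrophil, 4 of 4 B cell and 2 of 3 erythroid markers, and higher in the Lin- table for 3 of 3 dendritic cell and 3 of 3 progenitor markers, while the 2 T and NK cell markers in both tables split. The median percentile was 91.2 in CD11b+ and 75.3 in Lin- cells for macrophage markers and 99.8 and 87.0 for neutrophil markers. It was 76.6 and 97.4 for progenitor markers and 53.2 and 96.3 for the genes listed as dendritic cell markers. Of these last, Flt3 had a mean of 390 and 9396 and Siglech of 74.7 and 5631. The lists do not identify which cells gave these levels. The macrophage means summed to 98338 in CD11b+ and 35676 in Lin- cells, of which Lyz2 alone gave 72146 and 20990, and these sums are on separate scales. The means of the 10 macrophage markers ran from 14.0 to 72146 in CD11b+ and from 5.74 to 20990 in Lin- cells. Their part in the receptor levels was not tested.

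The 3 C1q genes lie next to each other on chromosome 4, but their levels were not alike in Lin- cells. In CD11b+ cells C1qa had a mean of 56.6, C1qb of 101 and C1qc of 65.0, near the median of all genes (47.3), at percentiles 51.2, 55.3 and 52.2. Ranked only among genes with a mean of at least 10, they stood lower, at percentiles 22, 28.5 and 23.5. In Lin- cells C1qb had a mean of 394 and C1qc of 340, above the median of 54.7, whereas C1qa had a mean of 6.71. Among genes with a mean of at least 10 there, C1qb stood at percentile 44.2 and C1qc at 41.9, and C1qa fell below that limit. Per kb of exon, C1qb was 1.71 times the level of C1qa in CD11b+ cells and 56.1 times in Lin- cells. C1qc was 0.994 times the level of C1qa in CD11b+ cells and 43.7 times in Lin- cells. The gap in Lin- cells concerned C1qa alone, since C1qb was 1.28 times the level of C1qc there and 1.72 times in CD11b+ cells. Both large ratios rest on the low count of C1qa in Lin- cells. Whether that count reflects the transcript was not tested. The 3 chains form 1 protein in equal numbers, and C1qa at percentile 33.7 of the Lin- table stood apart from C1qb at 65.0 and C1qc at 63.6.

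The eCLIP peaks answer which of these transcripts IGF2BP3 was found on in WT/MLL-Af4 cells. Over the 10 libraries, 11 peaks lay on members, 9 in CD11b+ and 2 in Lin- libraries. After merging peaks that overlapped by at least 1 base on the same strand within a cell type, they made 5 sites on 3 genes in CD11b+ cells and 2 sites on 2 genes in Lin- cells. With 3 of 8 members (37.5%) in CD11b+ and 2 of 8 (25%) in Lin- cells, the shares lay near the background, as 25.6% of all genes in the CD11b+ table and 26.5% of those in the Lin- table had a site in the cell type. Cfp was the only member with a site in both cell types. In no cell type did a member have a peak in at least 2 biological libraries, which 10.2% of all genes did in CD11b+ and 13.7% in Lin- cells.

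**Figure D2:**
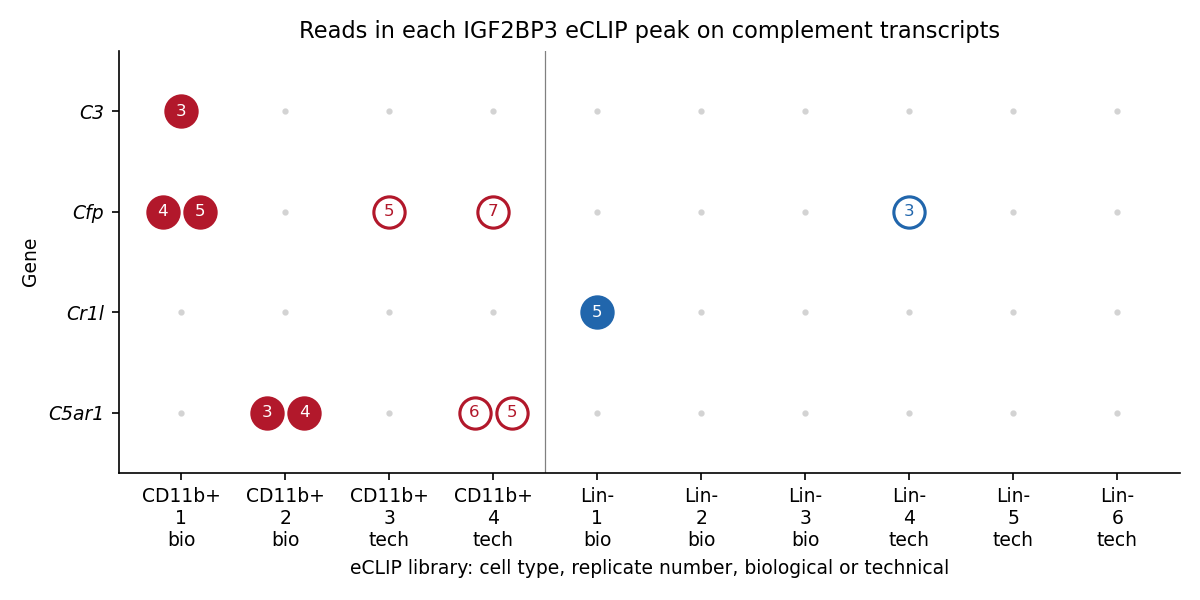
Each circle is 1 input-filtered eCLIP peak on a complement gene (rows) in 1 of the 10 libraries (columns), and the number in it is the reads in the peak; filled circles are biological and open circles technical replicates, and grey dots mark no peak. All 11 peaks hold between 3 and 7 reads, and no row has a peak in more than 1 biological library.

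All 11 peaks were shallow. The peak names end in a number that was read as the reads in the peak, which the files do not name. It was between 3, the smallest of any peak, and 7 on these genes, with a median of 5, and 10 of the 11 peaks lay below the median of their library, which was between 5 and 8 reads. The deposited p of the peaks ran from 0.000255 to 0.0425, and 2 of the 11 were below 0.001. Both of these came from the technical CD11b+ replicate 4. The input filter removed none of the 11 peaks, while 84.5% of all 88005 called peaks passed it.

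Cfp, the properdin gene (chrX:20925454-20931555), had the most peaks of the members. In CD11b+ cells it had 2 peaks in replicate 1, with 4 and 5 reads, none in replicate 2, 1 in the technical replicate 3 with 5 reads and 1 in the technical replicate 4 with 7 reads. In Lin- cells it had 1 peak, in the technical replicate 4 with 3 reads, and none in the other 5 libraries. These peaks formed a site at the end of intron 6 and another in intron 2. The first, chrX:20927735-20927785, lay 11 bases from the 3′ splice site of exon 7 in CD11b+ cells and held the peaks of replicates 1 and 4. The Lin- site, chrX:20927705-20927756, shared 22 bases with it (42.3% of the Lin- site and 43.1% of the CD11b+ site) and spanned the border of the exon. The Lin- site covers all 30 bases printed above for the end of intron 6, whereas the CD11b+ site covers only a part of them that lies in the intron. The second site, chrX:20930650-20930704, lay 447 bases from the nearest splice site, held the peaks of replicates 1 and 3, and had 25.5% pyrimidines (C and T on the transcript strand).

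C5ar1 (chr7:16246743-16259540), which encodes a G protein-coupled receptor, was the member with sites in the 3′ UTR. It had 2 peaks in CD11b+ replicate 2, with 3 and 4 reads, and 2 in the technical replicate 4, with 6 and 5 reads, and none in CD11b+ replicates 1 and 3 or in any Lin- library. The 2 libraries marked the same places, chr7:16247945-16248002 and chr7:16247622-16247672, both in the last of its 2 exons. The sequences there, repeats of C and T, consisted to 93.1% and 100% of pyrimidines, while the median over all CD11b+ sites was 47.4% and 3.27% of these sites had at least 93% pyrimidines. In the reference genome 86.2% and 100% of the bases of the sites were soft-masked as repeat or low-complexity sequence. At least 50% of the bases were masked in 57.7% of all CD11b+ sites. Pyrimidine and masking shares were computed after these sequences had been seen.

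C3 (chr17:57203970-57228136) had 1 peak, in CD11b+ replicate 1 with 3 reads and a p of 0.0425, and none in the other 9 libraries. The site, chr17:57211531-57211571, began right at the 5′ splice site of intron 29, in a gene of 41 exons. This was the only member with peaks in the inputs. CD11b+ inputs 1 and 2 each had a peak of 5 reads and Lin- input 1 a peak of 3 reads, all within chr17:57210164-57210178 at the end of exon 30, 1352 bases from the eCLIP site. Few transcripts had as high a mean normalized count as C3 in CD11b+ cells. In CD11b+ cells 76 genes had a higher mean than C3, and 72.4% of them had a site, and in Lin- cells, where C3 had none, 88.8% of the 1934 genes above it had one.

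Cr1l (chr1:195097382-195131586) had 1 peak, in Lin- replicate 1 with 5 reads and a p of 0.00343, and none in the other 9 libraries. The site, chr1:195114843-195114888, ended 1 base before exon 6 of 10. In CD11b+ cells, where Cr1l ranked at percentile 87.8, it had no peak.

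**Figure D3:**
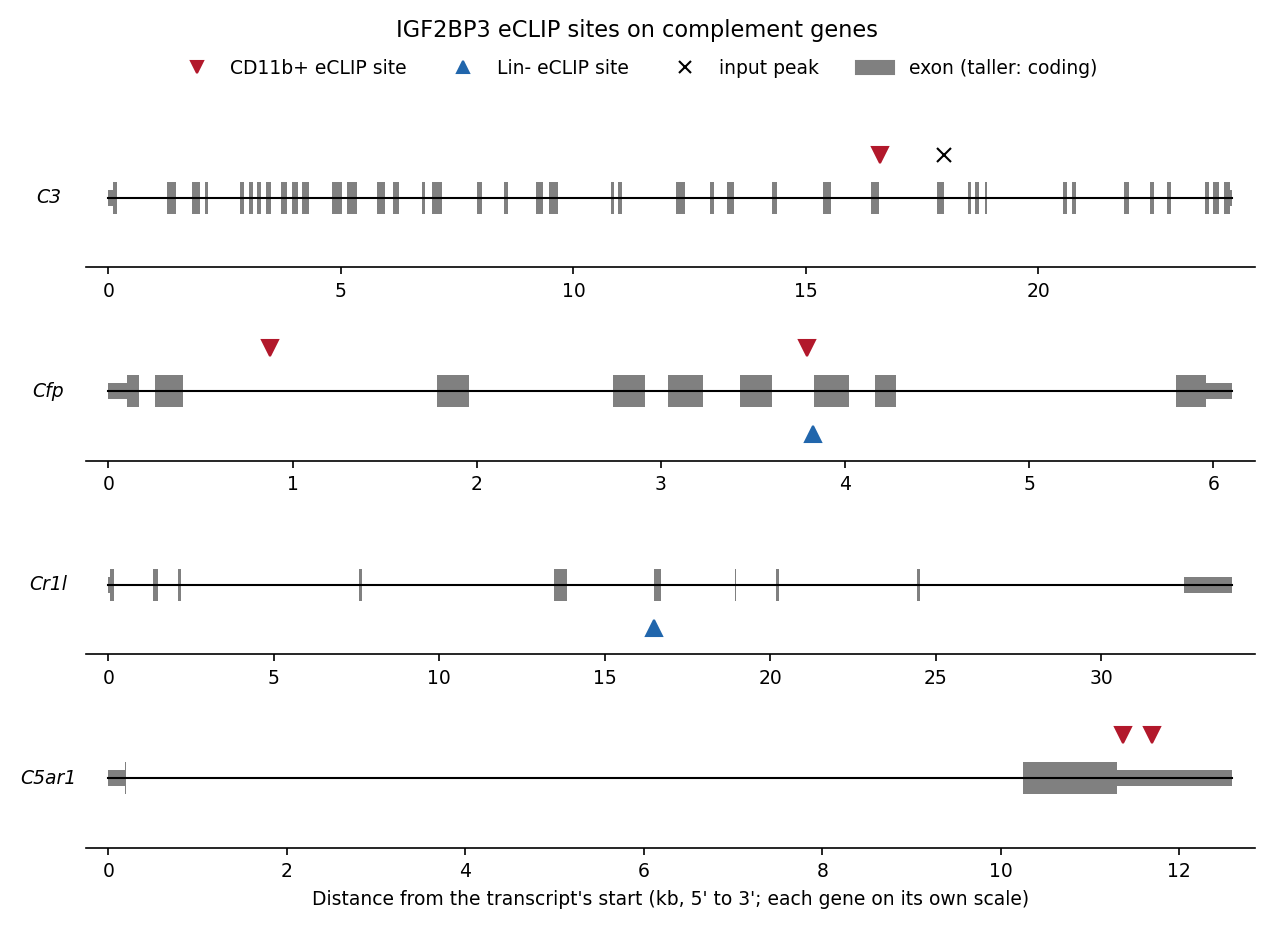
Exons (grey, taller where coding) of the longest basic transcript of 4 complement genes against distance from its start in kb, each gene on its own scale, with CD11b+ sites as downward triangles, Lin- sites as upward triangles and the place of input peaks as a cross. The sites on C3 and Cr1l and 1 place on Cfp touch or nearly touch an exon, and both C5ar1 sites lie in the last exon.

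By place in the gene, 5 of the 7 sites had their centre in an intron (3 of 5 in CD11b+ and 2 of 2 in Lin- cells), and the other 2 were those in the 3′ UTR of C5ar1. Over all sites, 85.0% lay in introns in CD11b+ and 79.0% in Lin- cells, and 7.86% and 3.39% in 3′ UTRs. Within 20 bases of a splice site lay 2 of the 5 CD11b+ sites (C3 and Cfp) and both Lin- sites (Cfp and Cr1l). For all sites in genes with introns, this share was 17.8% in CD11b+ and 61.7% in Lin- cells. With 7 sites on 4 genes these counts describe the members and no more.

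The study reported CA-rich elements as enriched in its IGF2BP3 peaks. Only uninterrupted CA repeats were searched for here, which are a narrower class. None of the 7 sites held ACACAC or CACACA (overlapping letters of 1 repeat, searched on the transcript strand), nor did any hold one when widened by 25 bases on each side, nor the shorter ACAC or CACA. Among all sites, 17.2% in CD11b+ and 8.48% in Lin- cells held one of the 6-mers and 26.6% and 25.7% one of the 4-mers. Absence of these letters from 7 windows says nothing about the protein.

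The design allows a comparison of CD11b+ with Lin- cells over the biological eCLIP libraries, 2 against 3, as the number of peaks on a gene per 10000 filtered peaks of the library. Each of the 4 members with a peak here had its peaks in 1 library alone, so the test could not decide on a difference. For Cfp the values were 2.35 and 0 in CD11b+ and 0 in all 3 Lin- libraries, a mean of 1.17 ± 1.66 (SD, n = 2) against 0, with p = 0.400 in the two-sided exact permutation test. For C5ar1 they were 0 and 1.99 against 0 in all 3 Lin- libraries, 0.995 ± 1.41 (SD, n = 2), with exact permutation p = 0.400. For C3 they were 1.17 and 0 against 0 in all 3, 0.587 ± 0.830 (SD, n = 2), again with exact permutation p = 0.400. In each of these genes 1 of the 2 CD11b+ libraries was above all Lin- libraries and the other was level with them at 0. For Cr1l the order was the other way, 0 in both CD11b+ libraries against 1.36, 0 and 0 in Lin- cells, 0.453 ± 0.784 (SD, n = 3), with exact permutation p = 1. The smallest p this design allows is 0.1. With peaks in 1 library alone, the exact permutation p is fixed in advance by the cell type of that library, so 0.1 was out of reach for these genes. Benjamini-Hochberg adjustment covered the 9290 genes with a peak in a biological library. The adjusted exact permutation p was 0.780 for Cfp, C5ar1 and C3 and 1 for Cr1l. For the same reason the groups had to overlap for all 4 genes. Among those 9290 genes the CD11b+ libraries lay all above the Lin- libraries for 10.6% and all below for 9.34%.

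**Figure D4:**
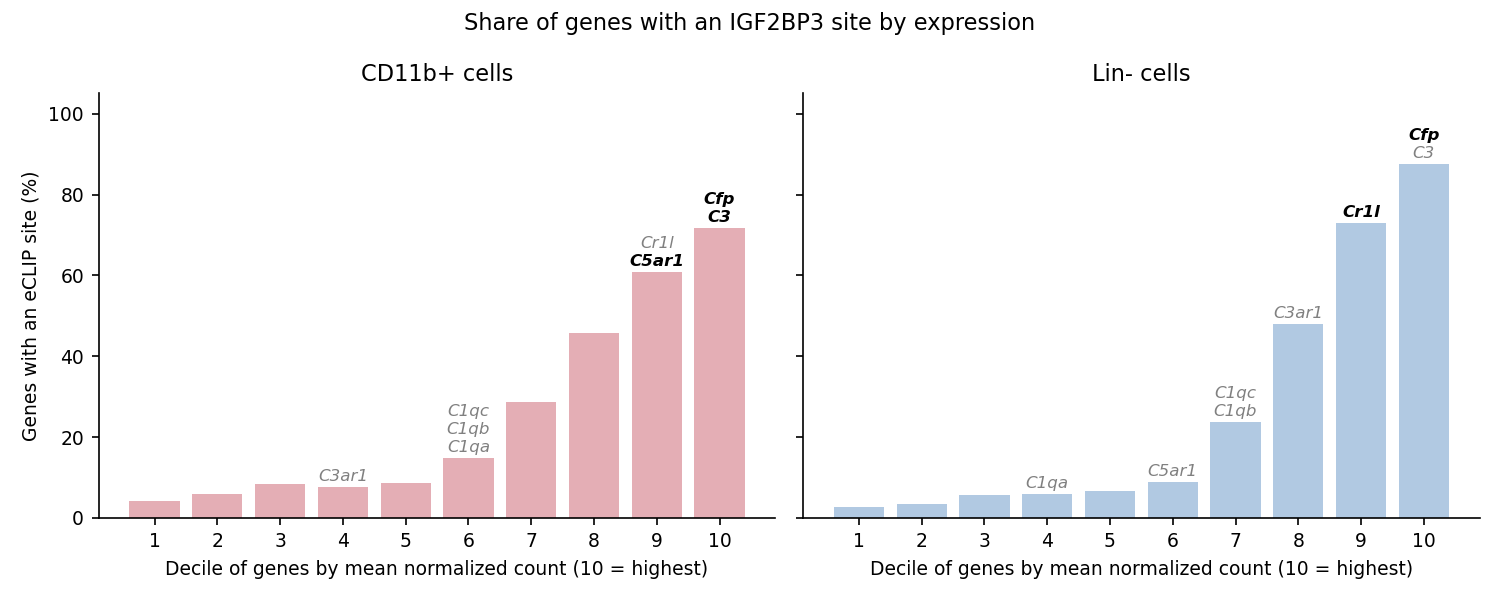
Share of genes with an eCLIP site (bars, percent) in each of 10 equal groups (deciles) of the genes of a table, ordered by mean normalized count from lowest (1) to highest (10), in CD11b+ (left) and Lin- cells (right). Complement genes are written above the decile they belong to, in bold where they had a site; the share rises to 71.6% and 87.6% in decile 10, and no member below decile 9 had a site.

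Sites were more common on abundant transcripts. The members with a site all stood among these, though not every abundant member had one. In CD11b+ cells, the share of genes with a site was 4.21% in the lowest and 71.6% in the highest decile by mean normalized count, and in Lin- cells it was 2.75% and 87.6%. All 3 CD11b+ members with a site and both Lin- members with a site belonged to decile 9 or 10 of their table. Those in the same deciles without a site were Cr1l in CD11b+ cells, where 60.8% of the genes of its decile had a site, and C3 in Lin- cells, where 87.6% did. The C1q genes fell in deciles with a share of 14.8% in CD11b+ cells and of 5.87% (C1qa) or 23.7% (C1qb and C1qc) in Lin- cells. C3ar1 belonged to a decile with 7.61% in CD11b+ and 47.9% in Lin- cells, and C5ar1 in Lin- cells to one with 8.89%. Genes with a site in the decile of the C1q genes in CD11b+ cells had a median span of 42.6 kb and those without one of 8.09 kb, and the C1q genes span 2.89 kb (C1qa), 6.06 kb (C1qb) and 3.26 kb (C1qc). In Lin- cells the medians were 64.6 and 6.72 kb in the decile of C1qa, but 18.7 and 14.3 kb in that of C1qb and C1qc, and 19.2 and 19.4 kb in that of C3ar1, which spans 9.02 kb, the last with no longer span for genes with a site. The part of level and span in the presence of a site was not tested.

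Where a site was present, members had 1 or 2 sites in a cell type. In the highest decile of CD11b+ cells genes with a site had a median of 3 sites, against 1 for C3 and 2 for Cfp. In the highest decile of Lin- cells the median was 4, against 1 for Cfp. C5ar1 had 2 sites in CD11b+ cells, equal to the median of genes with a site in its decile, and Cr1l had 1 in Lin- cells, where that median was 2. Genes with a site had a median span of 28.2 kb in the highest decile of CD11b+ and 32.6 kb in that of Lin- cells. C3 spans 24.17 kb and Cfp only 6.10 kb. In decile 9 the median span was 35.4 kb in CD11b+ cells, against 12.80 kb for C5ar1. It was 28.3 kb in Lin- cells, against a longer 34.20 kb for Cr1l. The part of span in the number of sites was not tested.

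Other genes of the complement pathway were counted from a list of 51 symbols that holds no member and names 1 gene by both C5 and Hc. In CD11b+ cells 10 of the 39 in the table had a site (25.6%), and in Lin- cells 7 of 42 (16.7%), against the 25.6% and 26.5% of all genes given above. A peak in at least 2 biological libraries was found for 5 of 39 in CD11b+ (12.8%) and 4 of 42 in Lin- cells (9.52%). In CD11b+ cells these were Itgb2 and Itgam, the chains of complement receptor 3, with 11 sites each, Cd93, a receptor first linked to C1q, with 5, the chaperone gene Calr with 4 and the collectin gene Colec12 with 3. In Lin- cells they were Calr with 10 sites, C1qbp, which encodes a mitochondrial protein that binds C1q, with 6, Cd93 with 5 and Itgb2 with 4. No member reached that level of replication in either cell type. These genes were also abundant in most cases: Itgb2 had a mean normalized count of 25977 in CD11b+ cells and Calr one of 26257 in Lin- cells, whereas Itgam stood at 17.0 in CD11b+ cells.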

How the data were processed

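RNA-seq and IGF2BP3 eCLIP of CD11b+ and Lin- MLL-Af4 cells were used. The authors mapped single-end stranded RNA-seq reads to mm10 with STAR 2.5.3a (submitters' processing notes), masked repeats and compared genotypes with DESeq2. The deposited tables also hold the authors' own comparison of I3KO with WT (log2 fold change, its error, statistic, p, adjusted p, threshold and peak marks), which was not used, so the knockout contrast was not analysed here. Of these tables only the deposited mean normalized count was taken, a signal with no value per library. For eCLIP the authors called peaks per library with CLIPper, on inputs with other settings per the file headers, and deposited peaks before and after removal of those overlapping input peaks. The number in the peak name and the unnamed p column (at most 0.05) were used as deposited.

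Peaks were assigned by Ensembl ID and merged at 1 base of overlap on the same strand. Places came from GENCODE M21 basic by the site's centre, and sequences were read from GRCm38 with pysam 0.24.0. Scripts ran under Python 3.11.15 and NumPy 2.4.6, figures under matplotlib 3.10.9. Merging, places and calls were tested on simulated data. Cell types were compared over biological replicates only by two-sided exact permutation, as separate samples whose cultures or mice the labels do not name. For members with peaks in 1 library alone the p-value was fixed in advance and measures no spread between these samples. Members and lists were chosen with earlier results of these data known. The named genes were all members, the list genes with most sites among those with peaks in 2 biological libraries (at most 6 per cell type), the 3 most abundant markers of a described class, Itgam and Igf2bp3. Alternatives covered replicates, input filter, p, overlap, scaling, place, motif and rank.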

Additional observations from a re-analysis of the deposited data

Results flagged for a closer look

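Among the values per library, 7 groups of 4 or 6 libraries had any peak on a member, and in 4 of them 1 library stood apart from the others. In each case it had a single peak and all others of its group were at 0, so the gap follows from there being 1 peak. The rate of about 1 in 20 groups by chance holds for continuous values and cannot be set against these 4. For C3, CD11b+ eCLIP replicate 1 had 1.17 peaks per 10000 peaks. For Cfp, the technical Lin- eCLIP replicate 4 had 2.48 peaks per 10000 peaks, from a single peak of 3 reads in the library with the fewest filtered peaks (4040). For Cr1l, Lin- eCLIP replicate 1 had 1.36 peaks per 10000 peaks. For C3 in the inputs, Lin- input 1 had 5.53 peaks per 10000 peaks.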

How the results depend on the processing

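Counts of members with a site were small and moved with the support asked for. Requiring a peak in at least 2 biological replicates left 0 members and 0 sites in both cell types, against 3 members with 5 sites in CD11b+ and 2 members with 2 sites in Lin- cells. With a deposited p below 0.001, 2 sites remained in CD11b+ cells, both from the technical replicate 4, and 0 members with 0 sites in Lin- cells. The difference between cell types over all members, taken from biological libraries only, went from 2.30 to 0 peaks per 10000. Biological replicates alone gave 1 member and 1 site in Lin- cells. Chosen after seeing the data, a minimum of 5 reads per peak gave 1 member and 1 site in Lin- cells, and a peak in at least 2 libraries of any kind gave 0 and 0 there, while leaving out Lin- replicate 5, whose input gave the fewest peaks, left 2 members and 2 sites. Leaving out each biological replicate, with technical libraries left out too, gave 1 to 2 members and 2 to 3 sites in CD11b+ cells and 0 to 1 members and 0 to 1 sites in Lin- cells: without CD11b+ replicate 1 the count was 1 member and 2 sites, without CD11b+ replicate 2 it was 2 members and 3 sites, and without Lin- replicate 1 it was 0. With the replicate number as a block (replicates 1 and 2, where sign flips allow no p below 0.5) the difference over all members was 2.08, and it changed no call. The labels do not say that a number marks a shared source. The input filter, the merging overlap, the annotation and the use of any exon overlap left the other counts within 1.5 times, with 4 to 5 sites in introns. Ranking only genes with a mean of at least 10 moved the percentiles of C1qa, C1qb and C1qc in CD11b+ cells to 22, 28.5 and 23.5, and in Lin- cells that of C1qc from 63.6 to 41.9 and that of C5ar1 from 57.1 to 31.6. No member sites held a CA 6-mer under any alternative.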
